A study of Mus musculus with 61 samples.

Results

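The genes of the NF-kB pathway were examined in microglia, the resident macrophages of the brain, and in other sorted brain nuclei. The members were 34 genes chosen by name, and every row of the microglia H3K27ac table assigned to one of them by nearest transcription start site (TSS) was taken. This gave 539 windows of 1000 bp out of 133129 in the table, of which 129 were centred within 3000 bp of the TSS (promoter side) and 410 lay farther away (distal). H3K27ac, acetylated lysine 27 of histone H3, marks active promoters and enhancers. All 34 genes had at least 1 window, from 1 for Irak1 to 64 for Nfkbiz.

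NF-kB transcription factors are dimers of 5 subunits that are held in the cytoplasm by IkB proteins. Signals from Toll-like, interleukin-1 and TNF receptors pass through MyD88, IRAK, TRAF and RIPK proteins to the kinase TAK1 and the IKK complex, which marks IkB for destruction and frees the dimers to enter the nucleus. Several of the genes they switch on, such as Nfkbia and Tnfaip3, encode inhibitors that close the loop, and macrophages use the pathway to turn on inflammatory genes.

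Microglia were sorted as CD45+ CD11b+ CX3CR1+ cells from brains of wild type C57/Bl6 mice (WT, 2 libraries) and of mice with the label Sall1 Enhancer Knockout (EKO, 2 libraries), in which both copies of a distant enhancer of Sall1 are deleted. Sall1 encodes a zinc-finger transcription factor that within the brain's immune cells is a microglial gene. The deletion is in the germ line, so all cells of these mice carry it, and the study's methods give adult males for both genotypes. H3K27ac was also profiled in PU1+ (myeloid), NeuN+ (neuronal) and Olig2+ (oligodendrocyte lineage) nuclei, with 2 libraries per genotype each. Peak lists pooled over replicates were given for SALL1 in WT, EKO, PWK and Spret mice, for the co-activator p300 in WT mice (1 of 3 libraries labelled microglia and 2 labelled PU1+ nuclei), and for SMAD4, the shared partner of TGF-beta-activated SMADs. The SMAD4 libraries of the second group have titles naming a conditional SMAD4 knockout, while their inputs and their peak list are named EKO. The study describes SMAD4 ChIP-seq in EKO microglia. Because the labels conflict, these are called the libraries labelled mutant. Nothing in the labels says that libraries came from separate animals, so p-values measure only the spread between these libraries, which may be technical. In limma that spread is mostly borrowed from all tested windows (18 prior against 2 residual degrees of freedom), so it can understate the spread at a single window.

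The genotype labels were checked on Sall1 itself. Its 65 windows summed to 4117 and 2471 tags in the WT libraries and to 312.1 and 155.3 in the EKO libraries (normalized tags as deposited, each library brought to 10000000), and all 29 of its tested windows were called as losing. Windows inside the deleted enhancer have no sequence left in EKO, so a loss there is not a loss of the mark. How many lay inside was not counted, and 3 Sall1 windows held 0 tags in both EKO libraries. SALL1 peaks numbered 15410 in WT and 7 in EKO. The H3K27ac libraries held 9963454 to 24357795 tags. EKO replicate 1 stood apart, with a median of 84.3 tags per tested window against 29.9 to 46.4 in the other 3 libraries, so all libraries were brought to one distribution by quantile normalization before testing. Among the nuclei, PU1 WT replicate 1 stood apart with 11149 listed regions holding 8.04% of its tags, against 25990 to 36057 regions and 37.8% to 53.5% in the other 3 PU1 libraries.

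In EKO microglia, H3K27ac rose at windows of Nfkbiz, Nfkbia, Birc3 and Irak3 that did not include the TSS window and fell at windows of Traf1 and inside Nfkb1, while 1 of the 31 tested TSS windows was called. Of the 539 windows, 281 had a mean above 16 tags and were tested (105 promoter side, 176 distal). A window was called when its adjusted p was below 0.05 (limma, Benjamini-Hochberg over all tested windows) and its difference above 2-fold. The members had 24 gaining windows (8.54%) and 12 losing windows (4.27%). Over all 55285 tested windows the shares called were 8.68% gaining and 7.56% losing, so the gains were as frequent as in the whole table and the losses somewhat rarer, and neither share marks out the pathway as a group. The median log2 difference, EKO minus WT, was 0.08 over the members' tested windows and -0.03 over all tested windows (0.39 and 0.28 as deposited). Windows with almost no signal in WT entered the test only through their level in EKO, and the reverse. The gaining windows fell into 17 separate stretches and the losing windows into 8, since neighbouring windows can share bases.

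Most called windows were distal. On the distal side 22 of 176 member windows gained (12.5%, against 11.6% of all distal windows tested) and 11 lost (6.25%, against 11.0%). On the promoter side 2 of 105 gained (1.90%, against 5.08%) and 1 lost (0.952%, against 3.31%); the gains were at Nfkbia 1519 bp from the TSS and at Tnip1. By the deposited annotation, 14 of the 24 gaining windows were intergenic, 8 intronic, 1 exonic and 1 at a promoter. Of the 12 losing windows, 5 were intronic, 4 intergenic, 2 exonic and 1 at a promoter. The calls came from 10 genes, 6 of which only gained, 2 only lost and 2 did both.

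**Figure D1:**
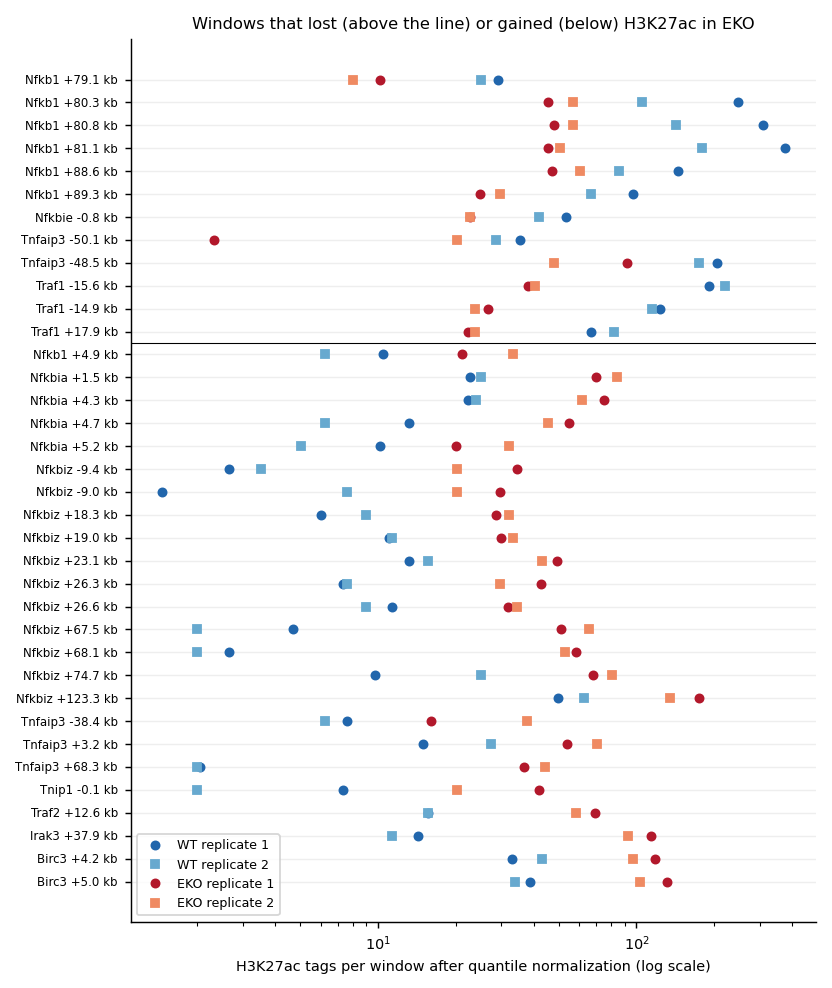
H3K27ac at the 36 called windows of NF-kB pathway genes in each of the 4 microglia libraries, in tags per window after quantile normalization (log axis); each row is a window, named by gene and distance from the TSS in kb, with losing windows above the line and gaining windows below it. Both EKO libraries lie to the right of both WT libraries in all 24 gaining rows and to the left in all 12 losing rows. The rows were selected on these same values, so this separation is no further support. As deposited it held in 24 gaining and 7 losing rows, a count not made over all windows. The 2 libraries of a genotype differ most at Tnfaip3 -50088 bp, at 2.31 and 20.3 tags in EKO.

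These calls depended on how the libraries were scaled and on single libraries. With the values as deposited, whose medians differ between libraries, 3 member windows gained and 0 lost (limma; 20 and 0 at an unadjusted p below 0.05), where 0.814% and 0.128% of all windows were called. On whole reads recovered from the values, edgeR called 30 gaining and 12 losing windows (10.3% and 7.31% of all windows) and DESeq2 24 and 10 (7.76% and 5.13%). Of these, limma's calls were shared with edgeR for 24 gains and 11 losses and with DESeq2 for 24 gains and 9 losses. Without WT replicate 1 or without EKO replicate 1, limma called 0 member windows in either direction (27 gaining and 11 losing at an unadjusted p below 0.05 without the former, 24 and 18 without the latter), and likewise 0% of all windows. Without WT replicate 2 the counts were 8 and 7 (2.92% and 0.941% of all windows), and without EKO replicate 2 they were 7 and 4 (2.28% and 3.51%). All 36 windows kept their direction in each of these fits.

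Sequences are shown for 8 of the called windows, those with the smallest p among the 17 that hold a listed peak or a match to the NF-kB consensus, leaving out windows that overlap one already shown. Each is the plus strand of mm10, read from GRCm38.p6, and spans the listed peak or, for Traf2, 300 bases around the NF-kB matches. Capitals mark matches on either strand to the NF-kB consensus, to GAGGAAGT (PU.1) or to TGANTCA (AP-1). Windows of Traf1, Nfkb1 and Tnfaip3 lost H3K27ac and the others gained it.
Traf1, SALL1 peak (chr2:34977234-34977442): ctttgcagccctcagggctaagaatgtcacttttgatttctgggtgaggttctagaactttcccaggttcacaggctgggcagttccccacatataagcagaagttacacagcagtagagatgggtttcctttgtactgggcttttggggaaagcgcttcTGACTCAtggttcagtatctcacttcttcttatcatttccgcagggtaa
Nfkb1, SMAD4 peak, central 300 bases (chr3:135610510-135610809): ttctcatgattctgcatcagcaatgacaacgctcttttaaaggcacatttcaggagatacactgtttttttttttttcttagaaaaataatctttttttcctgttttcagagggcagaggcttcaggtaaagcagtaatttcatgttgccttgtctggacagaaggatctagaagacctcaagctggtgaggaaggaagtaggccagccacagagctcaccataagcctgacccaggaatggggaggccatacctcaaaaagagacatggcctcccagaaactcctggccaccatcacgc
Irak3, SALL1 peak (chr10:120163617-120163857): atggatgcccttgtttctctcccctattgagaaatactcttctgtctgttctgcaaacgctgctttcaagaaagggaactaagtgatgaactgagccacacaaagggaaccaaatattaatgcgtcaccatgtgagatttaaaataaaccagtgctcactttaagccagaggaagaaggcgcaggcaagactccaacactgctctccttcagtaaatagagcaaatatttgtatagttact
Nfkbiz, SALL1 peak (chr16:55698587-55698802): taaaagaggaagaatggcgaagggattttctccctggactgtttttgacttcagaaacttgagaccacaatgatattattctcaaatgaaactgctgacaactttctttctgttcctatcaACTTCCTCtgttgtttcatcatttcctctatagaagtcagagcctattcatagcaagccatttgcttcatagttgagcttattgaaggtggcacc
Tnfaip3, SALL1 peak (chr10:19063439-19063647): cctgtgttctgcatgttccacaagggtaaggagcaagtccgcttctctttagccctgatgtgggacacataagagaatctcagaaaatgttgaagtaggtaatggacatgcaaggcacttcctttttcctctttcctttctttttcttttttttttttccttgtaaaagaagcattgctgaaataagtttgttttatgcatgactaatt
Traf2, NF-kB matches (chr2:25534191-25534490): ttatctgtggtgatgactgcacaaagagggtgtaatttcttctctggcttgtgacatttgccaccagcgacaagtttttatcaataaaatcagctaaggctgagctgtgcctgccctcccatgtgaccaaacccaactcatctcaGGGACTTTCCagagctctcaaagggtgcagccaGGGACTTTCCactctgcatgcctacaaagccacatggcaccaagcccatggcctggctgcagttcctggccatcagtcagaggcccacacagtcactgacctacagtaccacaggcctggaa
Birc3, SALL1 peak (chr9:7868837-7869074): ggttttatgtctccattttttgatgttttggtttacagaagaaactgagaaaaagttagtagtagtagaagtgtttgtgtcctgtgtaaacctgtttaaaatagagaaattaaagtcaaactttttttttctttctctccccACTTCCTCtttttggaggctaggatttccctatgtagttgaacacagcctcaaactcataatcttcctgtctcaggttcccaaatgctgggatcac
Nfkbiz, second SALL1 peak (chr16:55747234-55747478): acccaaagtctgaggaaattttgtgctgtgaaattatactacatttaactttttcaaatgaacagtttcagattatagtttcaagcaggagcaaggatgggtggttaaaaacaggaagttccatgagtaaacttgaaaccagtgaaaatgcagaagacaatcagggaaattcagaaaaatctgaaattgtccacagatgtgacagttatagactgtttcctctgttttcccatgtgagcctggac

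The Traf2 stretch holds 2 copies of the same NF-kB match in one orientation, while the Traf1 peak holds 1 AP-1 match, and the first Nfkbiz peak and the Birc3 peak hold 1 PU.1 match each. The other 4 stretches hold no match to these letters. Over whole windows, the NF-kB consensus was found in 22.3% of the 539 member windows and 20% of all windows, GAGGAAGT in 17.4% and 14.6%, and TGANTCA in 29.7% and 26.0%. On the promoter side the NF-kB consensus was in 41.9% of the 129 member windows (Wilson 95% interval 33.7% to 50.5%) and 28.0% of all promoter-side windows. It was in 3 of the 24 gaining windows (12.5%) and 3 of the 12 losing windows (25.0%), with intervals of 4.34% to 31.0% and 8.89% to 53.2%, against 20.1% and 19.6% of all gaining and losing windows. Intervals cover counting error only and treat windows as separate, though windows can overlap and share a gene. A match is a run of letters, not a site shown to be bound.

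The 5 subunit genes, which encode the DNA-binding proteins p50, p52, c-Rel, RelA and RelB, carried the highest promoter levels of the list. In the window nearest the TSS the WT means ran from 557.5 to 731.4 tags as deposited. Rel, for example, held 855 and 608 tags in WT and 1692 and 523 in EKO, and after quantile normalization 812, 792, 889 and 799, so that its genotypes nearly met. Summed over all windows of a gene, the 5 subunits had log2 differences between -0.01 and 0.08, with adjusted p from 0.586 to 0.967, and none was called.

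Within Nfkb1, the p50 precursor gene, opposite differences stood side by side. In all, 6 windows in the gene body, 79097 to 89253 bp from the TSS and annotated to introns 12 and 16 and exon 12, lost H3K27ac. The strongest, at chr3:135609960-135610960, held 420 and 134 tags in WT and 85.3 and 32.9 in EKO as deposited, a log2 difference of -2.41 (SE 0.258, adjusted p = 1.04e-06, limma). Both EKO values lay below both WT values, and the WT libraries themselves also lay far apart. DESeq2 gave a log2 difference of -2.58 here, with a larger adjusted p of 0.000394. This window overlaps a SMAD4 peak of the WT list, shown above, that the list of the libraries labelled mutant lacked. Of these, 3 of the 6 windows share that stretch and are not separate observations, and the one at 79097 bp was called neither by edgeR or DESeq2 nor after median scaling. One window 4864 bp from the TSS gained H3K27ac, from 8.62 and 3.98 tags to 40.2 and 22.4 (log2 difference 1.60, SE 0.526, adjusted p = 0.031). The TSS window went from 660 and 455 tags to 1734 and 564, a log2 difference of 0.52 (adjusted p = 0.000364) that was under 2-fold.

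The 6 genes of the IkB family had 15 gaining windows of 55 tested, where 8.68% of all tested windows gained. All 15 were at Nfkbiz and Nfkbia, and those that overlap are not separate observations. Nfkbiz, which encodes IkB-zeta, a nuclear IkB protein that modifies the response of selected target genes, had 11 gaining windows of 24 tested and none losing. Summed over its 64 windows, H3K27ac was 2303 and 1871 tags in WT and 7061 and 2285 in EKO, a log2 difference after normalization of 0.74 (SE 0.0854, adjusted p = 3.81e-07), which is short of 2-fold. The gains lay at 8976 and 9416 bp on the upstream side and at 18349 to 123343 bp downstream, and none was at the promoter. The TSS window differed by 0.33 on the log2 scale (adjusted p = 0.0854).

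The largest gain of the list was 68149 bp downstream of the nearest annotated Nfkbiz start. There, chr16:55753489-55754489 held 1.64 and 1.00 tags in WT and 108 and 34.4 in EKO (log2 difference 4.09, SE 0.563, adjusted p = 2.03e-05). The WT values rest on 4 and 1 reads, so the fitted difference depends on the pseudocount of 1. The overlapping window at 67537 bp held 3.28 and 1.00 tags in WT and 95.4 and 41.8 in EKO. These windows and the Irak3 window described below were the only members called with the values as deposited (adjusted p = 0.00927 and 0.0102 here). A further pair of Nfkbiz windows, at 74733 and 123343 bp, overlap SALL1 peaks of WT microglia and SMAD4 peaks of the libraries labelled mutant, and their SALL1 sequences are shown above. The one at 123343 bp went from 51.7 and 48.8 tags to 333 and 83.6 (log2 difference 1.45, SE 0.223, adjusted p = 7.28e-05).

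Nfkbia, the gene of IkB-alpha and the classical feedback inhibitor, had 4 gaining windows of 10 tested, all within 5228 bp downstream of its TSS. The leading one was exonic, 1519 bp from the TSS at chr12:55490628-55491628, and went from 21.8 and 19.9 tags to 131 and 53.0 (log2 difference 1.64, SE 0.289, adjusted p = 0.000287). Its TSS window had 194 and 165 tags in WT and 424 and 131 in EKO, and after normalization 173 and 222 against 220 and 212, values that overlap between genotypes. The sum over Nfkbia differed by 0.54 (SE 0.102, adjusted p = 0.00027), under 2-fold. Bcl3, a nuclear IkB-like co-regulator, had no called window, and its sum differed by 0.63 (SE 0.165, adjusted p = 0.00559).

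Among the other IkB-family genes a loss was seen. Nfkbie, which encodes IkB-epsilon, lost H3K27ac at 1 window 755 bp upstream, from 55.8 and 32.8 tags to 43.2 and 15.7 (log2 difference -1.02, SE 0.328, adjusted p = 0.0271), a call that DESeq2 did not make. As deposited its values overlap between genotypes. The TSS window of Nfkbie moved the same way (-0.88, adjusted p = 0.0124) but under 2-fold. Nfkbib and Nfkbid, for IkB-beta and the nuclear IkB-NS, had sums that differed by -0.22 and -0.14 with adjusted p of 0.296 and 0.335.

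**Figure D2:**
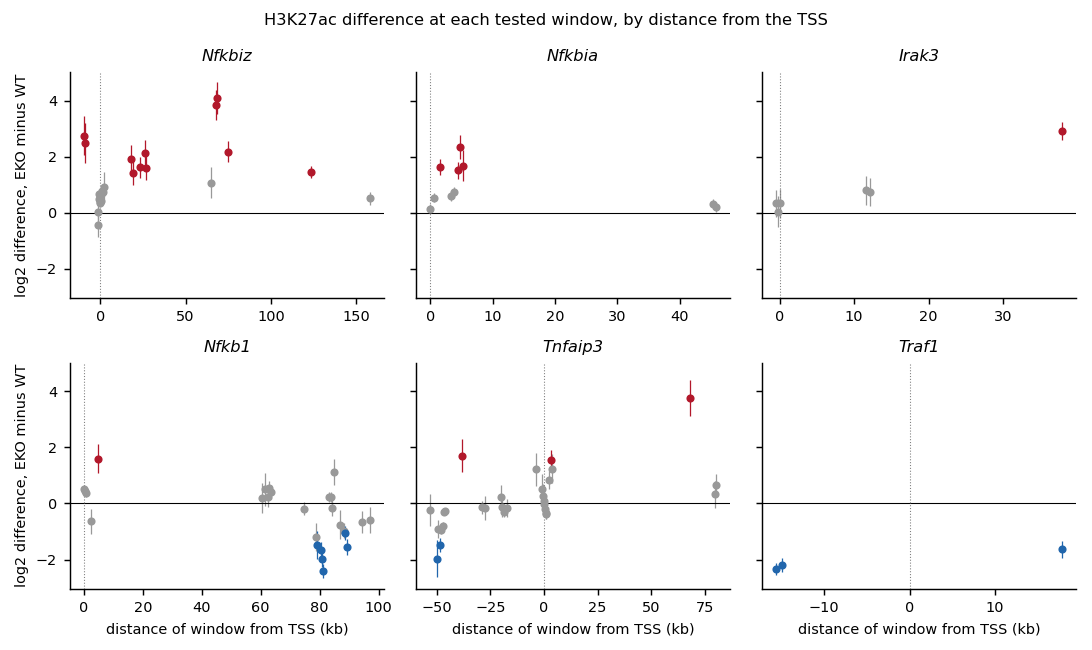
log2 difference in H3K27ac, EKO minus WT, at every tested window of 6 genes against its distance in kb from the nearest annotated TSS. Red points gained, blue points lost, grey points were not called, and bars are SE. Gains at Nfkbiz and Nfkbia stand beside grey points at the TSS, the Nfkb1 losses gather between 79097 and 89253 bp, and all 3 tested windows of Traf1 are blue.

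The IKK genes had no call. Chuk and Ikbkb encode the catalytic kinases IKK-alpha and IKK-beta, Ikbkg the scaffold NEMO, and Ikbke and Tbk1 the related kinases that act mainly towards interferon genes. Of their 36 tested windows 0 were called by limma, edgeR or DESeq2 (2 were lower and 0 higher by over 2-fold at an unadjusted p below 0.05 in limma), and their sums differed by -0.19 to 0.17. Ikbkb, the main IkB kinase, had 256 and 185 tags in its TSS window in WT and 546 and 194 in EKO, and 226, 250, 284 and 316 after normalization. Ikbke had almost no signal in its TSS window (1.99 to 3.01 tags) and its 15 tested windows lay elsewhere. The kinases upstream, Map3k7 (TAK1), its partner Tab2 and Map3k8 (TPL2), had 0 called among 43 tested windows in limma (2 lower and 1 higher at an unadjusted p below 0.05) and in DESeq2, while edgeR called 3 gaining. The TSS window of Map3k8 came nearest, with 153 and 104 tags in WT and 477 and 144 in EKO (log2 difference 0.81, adjusted p = 0.000868).

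Tnfaip3, which encodes the ubiquitin-editing inhibitor A20, had gains and losses at the same locus. Of its 29 tested windows, 3 gained and 2 lost, and its sum differed by only -0.20 (SE 0.0694, adjusted p = 0.0409). The strongest gain, 68294 bp downstream at chr10:18943169-18944169, went from 1.23 and 1.00 tags to 68.3 and 29.1 (log2 difference 3.77, SE 0.65, adjusted p = 0.000233), with 3 and 1 reads in WT. The leading window lay 48082 bp upstream, with 615 and 352 tags in WT and 552 and 156 in EKO, and its log2 difference of -0.95 (SE 0.131, adjusted p = 2.18e-05) was under 2-fold, so that it was not called. The strongest called loss, 48501 bp upstream and overlapping it, went from 232 and 131 tags to 174 and 31.4 (log2 difference -1.49, SE 0.245, adjusted p = 0.000142). As deposited EKO replicate 1 lay between the WT libraries at both windows, and the groups part only after normalization. The called window and the losing one at -50088 bp, which DESeq2 did not call, overlap SALL1 peaks. The Tnfaip3 promoter window, at 276 and 239 normalized tags in WT and 254 in both EKO libraries, differed by less than its spread.

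Tnip1, whose product ABIN1 binds A20, was the one gene with a call at the TSS itself. The window at -51 bp, chr11:54962491-54963491, went from 5.34 and 1.00 tags to 78.3 and 14.2 (log2 difference 2.60, SE 0.668, adjusted p = 0.00706). It holds matches to the NF-kB consensus. All values are low and the EKO libraries differed widely from each other. Tnip3, a relative, had 2 tested windows and neither was called.

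Traf1 showed the loss with the smallest p. TRAF proteins are adaptors that link TNF-family receptors to the kinases, and TRAF1 is one whose gene is itself induced by NF-kB. All 3 of its tested windows lost H3K27ac. The leading one, 15631 bp upstream at chr2:34976903-34977903, held 216 and 163 tags in WT and 71.3 and 26.9 in EKO (log2 difference -2.35, SE 0.214, adjusted p = 1.27e-07). EKO was below WT in both libraries even before normalization, and the window overlaps both a SALL1 and a p300 peak. Summed over its 8 windows, Traf1 went from 445 and 333 tags to 204.7 and 82.1, the only member whose sum was called as losing (log2 difference -1.89, SE 0.176, adjusted p = 1.33e-08, 3.71-fold). Its TSS window had 0.41 to 3.01 tags and was not tested.

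Traf2 gained at 1 intronic window, 12557 bp from the TSS, which holds the paired NF-kB matches printed above. Its level went from 14.0 and 11.9 tags to 129 and 37.3 (log2 difference 1.96, SE 0.331, adjusted p = 0.000195), with no overlap between genotypes. Traf3 and Traf6 had no called window. The leading window of Traf3 differed by -0.65 (adjusted p = 0.00394), under 2-fold.

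Among the receptor-side adaptors, Irak3 rose while the others did not pass. IRAK-M, its product, is an IRAK family member that damps Toll-like receptor signalling in macrophages. At chr10:120163207-120164207, 37890 bp from the TSS in intron 8, H3K27ac went from 12.3 and 7.96 tags to 216 and 58.2 (log2 difference 2.92, SE 0.313, adjusted p = 1.08e-06). This window was also called as deposited (adjusted p = 0.0384), and it overlaps a SALL1 peak. The sum over 11 windows went from 76.4 and 80.6 tags to 489 and 150.8, the only member sum called as gaining (log2 difference 1.42, SE 0.213, adjusted p = 1.56e-05, 2.68-fold). At its TSS the values overlapped, with 12.2 and 16.8 normalized tags in WT and 25.1 and 13.1 in EKO. Myd88, Irak1, Irak2, Irak4, Ripk1 and Ripk2 had no called window and sums that differed by -0.24 to 0.26.

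Birc3, which encodes the ubiquitin ligase cIAP2, gained at an overlapping pair of windows downstream of its TSS. The stronger, in intron 1 at 4992 bp, chr9:7867678-7868678, went from 39.0 and 26.9 tags to 250 and 64.2 (log2 difference 1.66, SE 0.248, adjusted p = 5.25e-05). Its neighbour at 4165 bp overlaps a SALL1 peak, printed above, and a p300 peak. The promoter moved the same way but less, from 351 and 249 tags to 1068 and 297 (0.66, adjusted p = 0.000504), and the sum differed by 0.81 (SE 0.109, adjusted p = 3.98e-06).

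**Figure D3:**
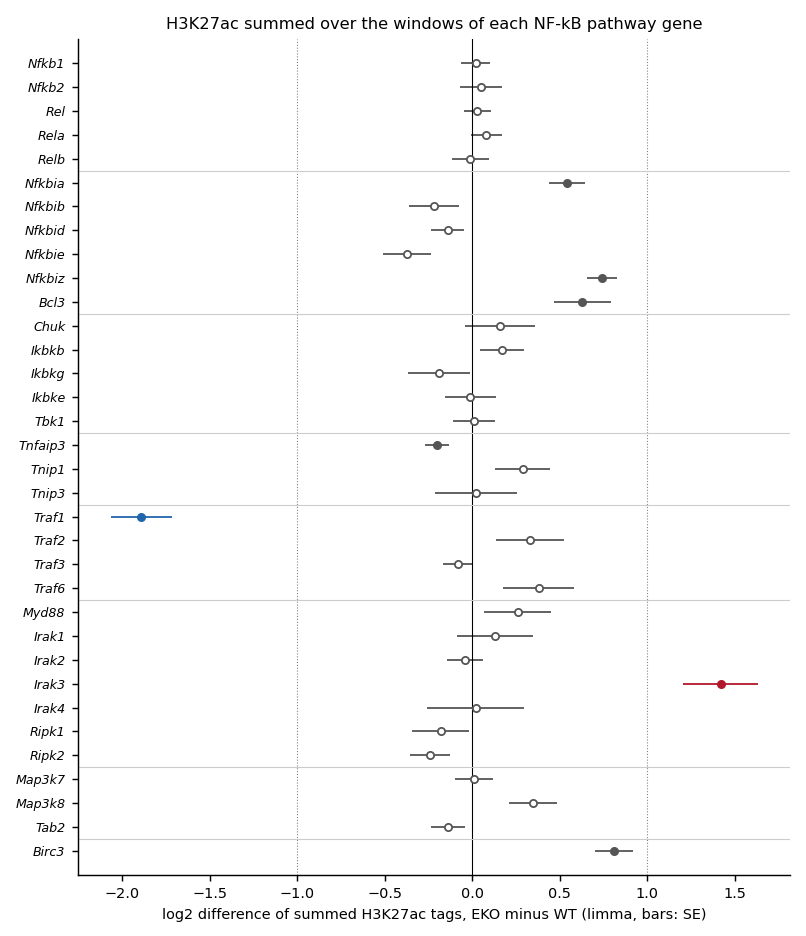
log2 difference of H3K27ac summed over all windows of each of the 34 genes, EKO minus WT, grouped by role (subunits, IkB family, IKK, A20 and partners, TRAF, receptor-side, upstream kinases, cIAP2); bars are SE, filled points have adjusted p below 0.05, and dotted lines mark 2-fold. Traf1 at -1.89 and Irak3 at 1.42 lie beyond 2-fold, and the 5 subunits lie between -0.01 and 0.08.

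By gene sums, 1 of 34 members lost (2.94%, against 3.83% of the 14595 genes tested) and 1 gained (2.94%, against 5.10%). At the adjusted p alone, 5 sums were above 0 (Irak3, Birc3, Nfkbiz, Bcl3 and Nfkbia; 14.7%, against 11.6% of genes) and 2 below (Traf1 and Tnfaip3; 5.88%, against 11.9%). As deposited, limma called 0 members in either direction (0 also at an unadjusted p below 0.05; 0.0206% losing and 0.103% gaining of all genes), while edgeR (3.51% and 5.30%) and DESeq2 (3.09% and 4.80%) each called 1 and 1. A sum counts bases of overlapping windows more than once. Of the 24 members with no called window, 6 had a leading window at an adjusted p below 0.05 but under 2-fold, which besides Map3k8 and Traf3 were Ripk2 (-0.78), Rela (-0.72), Tab2 (-0.92) and Rel (-0.54). The other 18 had leading windows at an adjusted p of 0.0544 to 0.686.

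Markers of other cell types moved with genotype in the same libraries. Over 8 border macrophage genes the summed tags after normalization were 676 and 648 in WT and 1596 and 1683 in EKO. Of the 8 sums, 4 rose by over 2-fold (Mrc1, Pf4, F13a1 and Ms4a7). Siglec1 (log2 difference 0.59) and Cd163 (0.84) were higher at an adjusted p below 0.05 but under 2-fold, while the defining markers Lyve1 and Cbr2 passed no threshold. Of 5 monocyte genes, Itga4 rose (log2 difference 2.69), Plac8 fell (-1.76), and Ly6c2 and Ccr2 passed no threshold. Over the 4 monocyte sums tested the level was 1339 and 1668 in WT and 3098 and 3435 in EKO, of which Itga4 alone held 296 and 345 in WT and 2125 and 2026 in EKO. The 10 microglia genes summed to 17401 and 16819 in WT and 14127 and 13926 in EKO after normalization, but to 19443 and 12823 against 26579 and 8749 as deposited, which overlap. After normalization 6 of these 10 sums were lower in EKO at an adjusted p below 0.05, all under 2-fold. Of 5 oligodendrocyte lineage sums tested, Mbp and Mog fell (log2 differences -1.05 and -1.19), while Olig2 (0.36), Olig1 (-0.20) and Pdgfra (-0.20) passed no threshold. Among 3 astrocyte sums tested, Slc1a3 fell from 1889 and 1731 tags to 757.5 and 667.7. Aqp4 (log2 difference -0.71) and Aldh1l1 (-0.48) passed no threshold. Together the 3 held 1953 and 1779 in WT and 786 and 711 in EKO, most of it Slc1a3. Among 2 neuron sums tested, Snap25 fell from 39.6 and 37.9 to 16.9 and 11.0, while Syt1 (-0.01) passed no threshold. Together these 2 held 104 and 93 in WT and 92 and 58 in EKO. The defining markers Rbfox3 and Gfap held at most 11.1 tags in any library, and the 2 neutrophil sums tested held at most 60 together. The part of these markers in the differences at NF-kB genes was not tested, and in bulk cells a changed mix and a changed level per cell cannot be told apart. The study's methods describe a gate on CD11b+, CD45 low and CX3CR1+ cells. How far this gate left out other cells in these libraries was not tested.

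Sorted PU1+ nuclei gave separate libraries on the same genotypes, in the form of region lists. All 24 gaining windows lay inside a listed region of both PU1 EKO libraries, 17 inside one of PU1 WT replicate 2 and 2 inside one of PU1 WT replicate 1, the library that stood apart. Of all 4800 gaining windows, 96.0% and 93.1% lay in regions of the EKO libraries and 64.4% in those of WT replicate 2. The tag density of the region holding the window (normalized tags per kb of region) was higher in both EKO libraries than in both WT libraries for 21 of the 24 (87.5%, against 78.6% of all gaining windows), and the 3 exceptions were Traf2 and the Tnfaip3 windows at 3169 and -38385 bp. At the Irak3 window, neither WT library had a region, and the EKO libraries had 106 and 72.8 tags per kb. A region can hold several windows, as at Nfkbiz, where windows 18349 to 26598 bp from the TSS shared regions of 66.2 tags per kb in EKO replicate 1.

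At the 12 losing windows, both EKO libraries of PU1+ nuclei were below WT replicate 2 for 11 (91.7%, against 84.5% of all losing windows). They were below both WT libraries for 0 of 12 (15.4% of all), with WT replicate 1 the low library described above. At the Traf1 windows upstream the densities were 25.9 and 82.6 in WT and 33.6 and 38.0 in EKO, and the window at 17858 bp was listed in WT replicate 2 alone. The Nfkb1 and Tnfaip3 losses sat in broad regions that stayed listed in EKO, as at Tnfaip3 -48501 bp with 79.6 and 237 in WT and 220 and 189 in EKO. The median density over the 12 windows was 30.6 and 96.9 in WT and 81.9 and 61.6 in EKO.

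Across kinds of nuclei, the members were listed more often in PU1+ nuclei than in the others. Of the 539 windows, 136, 298, 299 and 282 lay in regions of the PU1 libraries (WT 1, WT 2, EKO 1, EKO 2). In the same order the shares were 21.0%, 18.7%, 22.3% and 19.7% in NeuN+ nuclei and 16.7%, 16.7%, 18.2% and 14.7% in Olig2+ nuclei. By comparison, PU1 WT replicate 2 covered 55.3% of the member windows and 47.3% of all windows, whereas NeuN WT replicate 2 covered 18.7% and 29.8%, and Olig2 WT replicate 2 covered 16.7% and 26%. The windows themselves come from open chromatin of microglia, so these shares describe microglial sites.

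At the TSS windows the genes parted by cell type. Leaving aside PU1 WT replicate 1, 28 of the 34 were listed in all PU1 libraries, while 20 were listed in all 4 NeuN libraries and 15 in all 4 Olig2 libraries. These counts were not made for other genes. On the promoter side, PU1 WT replicate 2 covered 75.2% of member windows and 61% of all windows. For WT replicate 2 of NeuN the shares were 45% and 60.6%, and for that of Olig2 35.7% and 52.4%. The promoters of Nfkb1, Rel, Rela, Nfkbia, Chuk, Ikbkg, Tbk1, Ripk1, Ripk2, Map3k7 and Tab2, 11 in all, were listed in all 3 kinds. Nfkbie and Birc3 were listed in PU1+ nuclei alone, Birc3 at 57.0 tags per kb in WT replicate 2 and 91.7 and 81.1 in EKO. Nfkbid, Tnfaip3 and Map3k8 were listed in PU1+ and NeuN+ nuclei but in no Olig2 library. Tnip1, whose TSS window gained in microglia, was listed in both PU1 EKO libraries (32.2 and 31.3 tags per kb) and in no WT library of any kind. Ikbke and Tnip3 were listed nowhere at the TSS.

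**Figure D4:**
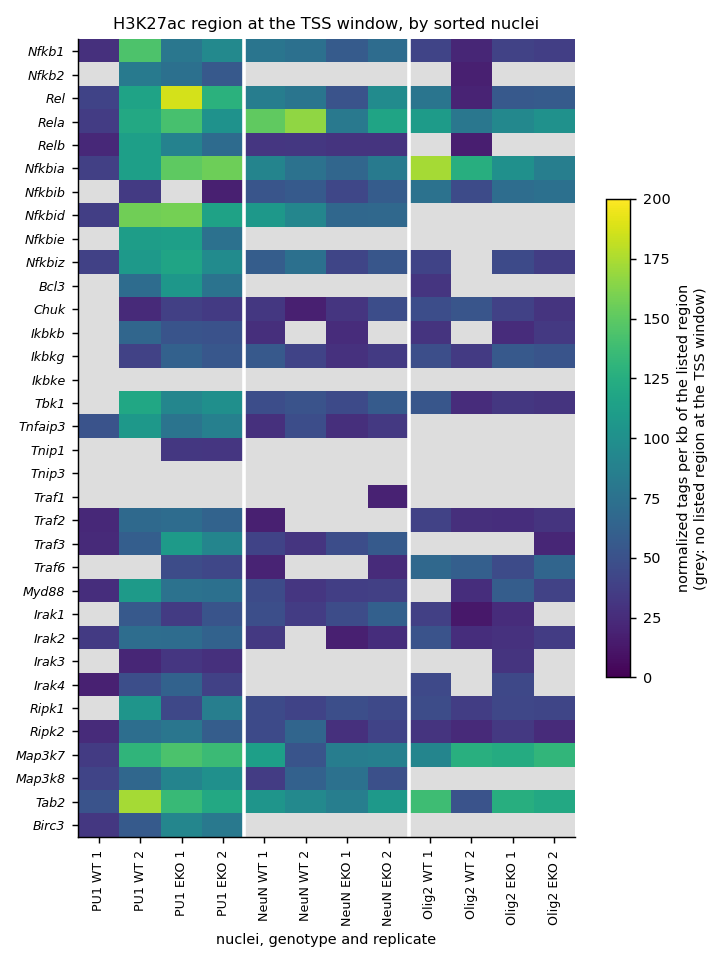
Density of the H3K27ac region that overlaps the TSS window of each gene, in normalized tags per kb of region, in the 12 libraries of sorted nuclei; grey cells had no listed region. The PU1 columns other than WT 1 are filled for 28 genes, NeuN columns are grey for Nfkbie, Birc3 and Bcl3, and Olig2 columns are grey for Tnfaip3, Nfkbid and Map3k8.

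SALL1 peaks of WT microglia overlapped 102 of the 539 windows (18.9%, Wilson 95% interval 15.8% to 22.4%, against 13.7% of all windows), as 74 peaks at 21 genes. The interval treats windows as separate, though several can share a peak or a gene. On the distal side the share was 18.8% (15.3% to 22.8%) against 15.6% of all distal windows. On the promoter side it was 19.4% (13.5% to 27%) against 9.37%. The SALL1 and SMAD4 lists used here are shorter than the sets of peaks the study describes, so overlaps may be undercounted for members and for all windows alike. Tab2 and Tnfaip3 had the most, 11 each. The strongest was at Tab2, with an enrichment score of 231 and rank 238 of 15410, followed by Nfkb1 (score 220, chr3:135608255-135608463) and a second Tab2 peak (215). None of the 3 sat at a called window, and the EKO list of 7 peaks had none at a member. PWK mice had 18 peaks at 9 genes and Spret mice 11 at 8, with Tab2 again first in both. Of the 102 windows, 22 also had a PWK peak and 15 a Spret peak, lists with 3627 and 2245 peaks.

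p300 peaks overlapped 71 windows (13.2%, against 9.64% of all), and the strongest was 105067 bp upstream of Ikbke (score 305), where SALL1 was also listed (score 171). In all, 41 windows of 14 genes had both SALL1 and p300, and 11 windows of 4 genes had SMAD4 as well. SMAD4 peaks of WT microglia overlapped 34 windows (6.31%, against 4.89%) of 12 genes and those of the libraries labelled mutant 23 windows (4.27%, against 3.03%) of 7 genes, with 15 windows in both. Nfkbia held the strongest of each, overlapping at its promoter (scores 148 and 218, chr12:55491853-55492191 in WT). Nfkbiz had 1 SMAD4 peak in the WT list against 4 in the other, while Tnfaip3, Irak2, Bcl3, Nfkbid, Map3k7 and Ikbkb were in the WT list alone and Chuk in the other alone; the lists hold 4024 and 2333 peaks.

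Peaks at the called windows are read against those of all genes. SALL1 was listed at 3 of 12 losing windows (25.0%), 6 of 24 gaining windows (25.0%) and 78 of 245 windows not called (31.8%), with intervals that overlap throughout, against 28.1%, 23.1% and 26.7% over all genes. SMAD4 of WT was at 3 losing windows, all of them the overlapping Nfkb1 stretch, and at 1 gaining window, at Nfkbia. SMAD4 peaks of WT were at 30 of the 245 member windows not called (12.2%). In the whole table they were at 13.2% of losing windows, 2.90% of gaining windows and 11.8% of windows not called. p300 was at 1 losing and 3 gaining windows (8.33% and 12.5%) and at 62 of the 245 not called (25.3%), again with overlapping intervals, against 20.2%, 7.96% and 22.0% over all genes. At this number of windows no difference between losing and gaining members was detectable.

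**Figure D5:**
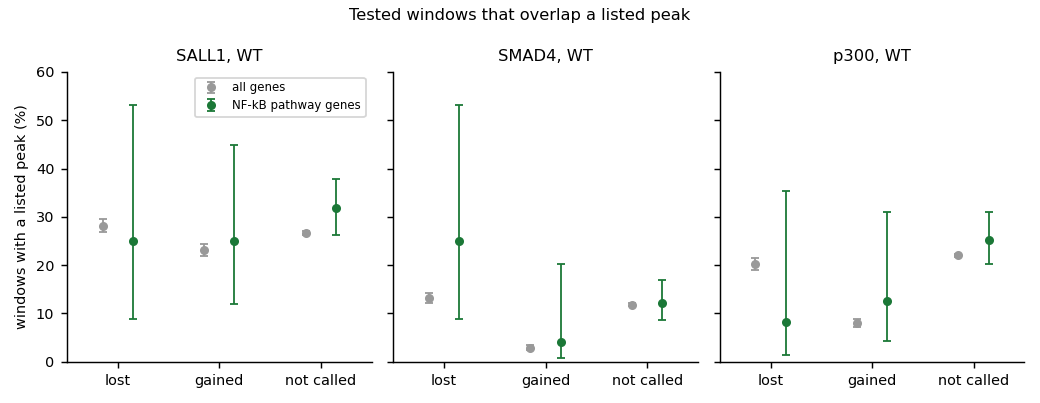
Share of tested windows that overlap a listed SALL1, SMAD4 or p300 peak of WT mice, for windows that lost or gained H3K27ac or were not called, in all genes (grey) and NF-kB pathway genes (green); bars are Wilson 95% intervals. The intervals of the 12 losing and 24 gaining member windows overlap in each panel. Over all genes SMAD4 stands at 13.2% of losing windows, 2.90% of gaining windows and 11.8% of windows not called.

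Other genes of the pathway and its usual targets were taken from lists. Of 38 further pathway genes with 225 tested windows, 13 windows lost (5.78%, against 7.56% of all tested windows) and 9 gained (4.00%, against 8.68%). The gain with the smallest p was at the TSS of Tank, a TBK1 adaptor, from 13.1 and 5.97 tags to 159 and 41.1 (log2 difference 2.56, adjusted p = 2.67e-05). Losses led at Tnip2 (-1.05 and -1.38) and at Cflar (-1.43), which encodes the caspase-8 inhibitor cFLIP, and Tnfrsf11a, the RANK receptor gene, gained at its promoter (1.40 and 1.67).

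Of 28 genes that NF-kB is known to induce, with 192 tested windows, 30 windows gained (15.6%, against 8.68% of all tested windows) and 6 lost (3.12%, against 7.56%). Gains lay at 12 of the genes and losses at 4, and the median log2 difference was 0.08. Sums rose for the chemokine genes Cxcl1 (2.01), Cxcl2 (2.08) and Ccl2 (1.43), the adhesion molecule gene Vcam1 (1.22) and Nos2 (1.58), which is 18.5% of the 27 sums tested against 5.10% of all genes. Cxcl1 went from 73.1 and 66.7 tags to 575 and 222.5, and Ccl2 from 240 and 150.3 to 1109 and 376. The leading single window was at Plau, the urokinase gene, at -11577 bp, from 26.7 and 18.9 tags to 373 and 111 (log2 difference 2.83, adjusted p = 4.22e-08). Losses led at Il6 (-1.51) and Ccl5 (-1.21 and -1.22).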

How the data were processed

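ChIP-seq libraries of mouse microglia and sorted nuclei were analysed; inputs were not used here. Reads were mapped by the authors to mm10 with Bowtie2 and counted with HOMER. The deposited H3K27ac table gives signal, tags per window scaled to 10000000 tags per library, in windows of 1000 bp at merged open-chromatin peaks. Deposited region lists of nuclei give signal (normalized tags) and fold over input per library (a ratio, lowest 4.0), and the deposited SALL1, SMAD4 and p300 lists give an enrichment score per peak after replicates were combined by IDR. A gene's windows are those nearest to its TSS, which need not be its regulatory elements.

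Windows with a mean above 16 tags were quantile normalized, and log2(tags + 1) values were fitted with limma 3.58.1 (trend, 2 residual degrees of freedom) in R 4.3.3. Variances were moderated with 18 prior degrees of freedom for windows and 21.5 for gene sums. Fold changes are on the log2(tags + 1) scale, which understates low windows. Fits and adjusted p-values cover all 55285 tested windows or 14595 tested gene sums, from libraries of 24357795, 10047696, 9963454 and 13392914 tags (WT 1, WT 2, EKO 1, EKO 2), of which 33.2% to 97.2% fell in windows, counting overlaps repeatedly. The design called for limma because the table is normalized. All values were whole multiples of 1 tag (100% within 0.05 tags), so count models on the recovered reads (edgeR 4.0.16, DESeq2 1.42.0) served as alternatives. Other alternatives were the scaling, pseudocount, filter, replicate block and left-out libraries. Exact permutation of 2 against 2 libraries cannot go below p = 0.33 and was not used. Scripts were tested on simulated data. Overlap means at least 1 bp; motifs were searched on both strands of each window.

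Every member is accounted for by its TSS window (centre nearest the TSS) and leading window (smallest p); up to 3 windows per direction are named from each of the 2 other lists (38 further pathway genes, 28 targets), and sequences follow the rule given with them. Further called windows of a member, single peaks and nuclei regions were named after their values were seen. The members and lists were chosen with earlier results of these data known. Marker lists cover microglia, border macrophages, monocytes, neutrophils, neurons, oligodendrocyte lineage and astrocytes; 1 marker and the sum of its list are not reported here.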

Additional observations from a re-analysis of the deposited data

How the results depend on the processing

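The 36 called member windows, the 7 member sums at an adjusted p below 0.05 and the 9 TSS or leading windows named with one kept their direction under all alternatives that gave a value. Of the 34 member sums, 10 with a log2 difference of -0.24 to -0.01 were above 0 as deposited, and 3 of 0.01 to 0.03 were below 0 in edgeR and DESeq2; none of these was called. Values as deposited left 71 losing and 450 gaining windows over all genes, 0 and 3 among the members, 3 and 15 over all gene sums and 0 and 0 of the members' sums (limma; 0 and 0 of these at an unadjusted p below 0.05 and above 2-fold; edgeR and DESeq2 call 1 and 1). The cause was not tested. Leaving out 1 library, the counts ranged from 0 to 1938 losing and 0 to 1613 gaining windows over all genes, from 0 to 7 and 0 to 8 among the members, and from 237 to 523 and 502 to 602 over all gene sums, while the members' sums stayed at 1 and 1. In these fits a lone library is assumed to vary like the others and 1 residual degree of freedom remains. With a mean above 32 tags, fewer windows are tested. Then 2521 losing and 2944 gaining windows were called over all genes. Among the members 11 lost and 13 gained, against 12 and 24 in the main setting, so it was mainly gaining windows that dropped out.

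The replicate block left 12 losing and 24 gaining member windows and 4484 and 4958 in all, 599 and 768 over all gene sums and 1 and 1 of the members' sums; same-numbered libraries correlate at 0.036 in their deviations from the group means, so the numbers do not pair the libraries. Replicates differed beyond sampling noise (chi-square per window 3.21 in WT and 2.9 in EKO). Chosen after seeing the data, the calls that limma, edgeR and DESeq2 share were 9 losing and 24 gaining.

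The upper 50% of peaks by score lies at 59 (SALL1), 21 (SMAD4) and 38 (p300) member windows. Asking that 50% of a window be covered gave 79.5 windows a library in NeuN and 63.75 in Olig2 nuclei, against means of 110 and 89.25, and a fold of at least 8 gave 86.75 and 79.5. Without 1 library the mean ranged from 238.7 to 293 (PU1), 106.7 to 113 (NeuN) and 86.33 to 92.67 (Olig2).

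With 2 libraries per genotype, precision is limited, and windows with a mean of 16 tags or fewer were left out: 258 of the 539 member windows were not tested.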
